A study of Arabidopsis thaliana with 31 samples.

Results

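The 60 genes followed here encode cytosolic proteins of the large ribosomal subunit of Arabidopsis thaliana, in families L3 to L24. Their reads were taken from the poly(A)-seq data of the series. These members are a chosen list: further genes of some of these families, and the L7a genes, are not among them. A read was assigned to a member when its alignment named a transcript of that gene, and all 60 members had reads, among 19829 genes named in the library. The library, Poly(A)_Col, is the only sample used among the 31 of the series and was made from whole seedlings of the wild-type ecotype Col, which carry no atpab mutation or transgene and were harvested at 2 weeks of age. The RNA was partially digested with RNase T1, fragments with a poly(A) tail were selected, and an adaptor was ligated to the tail, so the 3′ end of each trimmed read marks the last base before the tail. With a single library there is no replicate error, and no groups were compared. The intervals below are 95% intervals for counting error only. The exception is the interval of a median over genes, which treats the genes as independent draws although many are paralogs.

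The large subunit of the ribosome joins amino acids into protein and holds the tunnel through which the new chain leaves. Most of its proteins are present in equal numbers, yet in plants nearly every one is encoded by a small family of paralogs scattered over the genome, and mutants of individual paralogs often have narrow, pointed leaves or die as embryos. The 3′ untranslated region (3′ UTR) lies between the stop codon and the poly(A) tail, and where it ends is set by cleavage of the precursor RNA at a polyadenylation site. In plants this site is often a cluster of neighbouring positions, and the hexamer AATAAA, the principal signal in animals, is found upstream of only a minority of sites.

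The 60 members form 24 families, 15 with 2 members, 6 with 3 and 3 with 4, and lie on all nuclear chromosomes, 20 of them on chromosome 1 and 15 on chromosome 3. The annotation names several for a phenotype of their mutants: PGY1, PGY2 and ATL5 (PGY3) are the PIGGYBACK genes of leaf polarity, STV1 is SHORT VALVE1, SAC52 was found as a suppressor of the dwarf mutant acaulis5, and EMB2296, emb2386 and emb2171 are needed for embryo development. Members without a symbol are given by locus. Several paralogs are neighbours, the closest being the L6 genes AT1G74050 and AT1G74060, which are separated by 0.209 kb, while the L9 genes AT1G33120 and PGY2 (AT1G33140) lie 10.7 kb apart and the L21 genes AT1G09590 and AT1G09690 lie 28.4 kb apart.

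The sequences shown are the last 30 bases of the transcript up to the most used 3′ end, the base at which the largest number of the gene's reads stopped. That base held over 50% of the reads in only 5 of 59 members. The sequences are from the RefSeq assembly TAIR10.1 and all lie in the 3′ UTR of an annotated transcript. The L23 genes are shown because their proteins were identical and their most used ends lay equally far from the stop codon, although the bases before those ends had little in common. No base is in capitals, since none of these stretches holds a hexamer within a single base of AATAAA.
AT3G04400: gttcttataagaaccttcgtttctcgtgcc
AT2G33370: catatttccagtttctaagagattttgctt
AT1G04480: aatgatttggctattttgacaattttttct
They lie at chr3:1168417-1168446 on the plus strand, chr2:14143580-14143609 on the minus strand and chr1:1217366-1217395 on the plus strand, respectively.

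The L9 neighbours AT1G33120 and AT1G33140 also encode the same protein. Only the more abundant of them has a hexamer near AATAAA in this stretch, in capitals.
AT1G33120: gaatttattaacttatgcaacaagttttgg
AT1G33140: cacctttgcttaATTAAAtcatatcgtgtg
They lie on the plus strand at chr1:12012333-12012362 and chr1:12024669-12024698.

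The last set shows genes in which a large and a small share of the reads stopped at a single base. AT4G13170 (L13a) and AT2G34480 (L18a) stopped mostly at the last base shown, and AT3G14600, the L18a paralog of the latter, was spread most widely of all members. Capitals mark a hexamer that differs from AATAAA by 1 base.
AT4G13170: ttattatttcAATCAAaacaattttatttc
AT2G34480: gtttcctacttatgAAAAAAcctttccctt
AT3G14600: gtgactcatctccaattttcgtcagtttcc
They lie at chr4:7654947-7654976 and chr2:14532737-14532766 on the minus strand and at chr3:4912058-4912087 on the plus strand.

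The deposited alignments of the library held 2786281 reads, of which 2661059 were in the sense of the gene they named. The authors list more sequenced reads and also more uniquely mapped reads for this library, and the latter difference was not resolved. The members took 56902 sense reads, 2.04% of all reads (Clopper-Pearson interval, 2.03 to 2.06%), and 63 antisense reads. Among the member reads 71.0% repeated the transcript, start and end of another read, so PCR copies cannot be told from separate molecules and the intervals are narrower than the true error. A further 260 reads ended within a member on its strand while naming another gene, and 232 of these belonged to the L8 gene AT4G36130.

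The members were among the abundant transcripts. The number of sense reads per member ranged from 16 for RPL10B (AT1G26910) to 5987 for emb2171 (AT3G04400), with a median of 585, against a median of 20 over the 18910 genes with a sense read. At least 20 sense reads, the minimum used here for any value on 3′ ends, were found for 59 of 60 members (98.3%) and for 50.4% of genes with a sense read. At least 100 reads were found for 56 members and at least 1000 for 16. The exception, RPL10B, had 16 reads (exact Poisson interval, 9.15 to 25.98) and is left out of the values on 3′ ends.

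Reads were divided unequally among paralogs. The paralog with the most reads held a median of 68.5% of its family's reads over the 24 families, from 41.2% in L6 to 97.7% in L14. In 10 families it held over 75%, in 4 between 60 and 75%, and in 10 under 60%. Because this paralog was picked by its reads, its share could not fall below 50% in the 15 families of 2 members. Lower shares, such as that of L6, were possible only in larger families. As the RNA came from whole seedlings, fewer cells that express a gene and less of its RNA per cell cannot be told apart. Each read counts a single 3′ end, so numbers were not divided by transcript length. The median mapped length of the reads was 35 to 83 nt among members and its part in the read numbers was not tested.

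**Figure D1:**
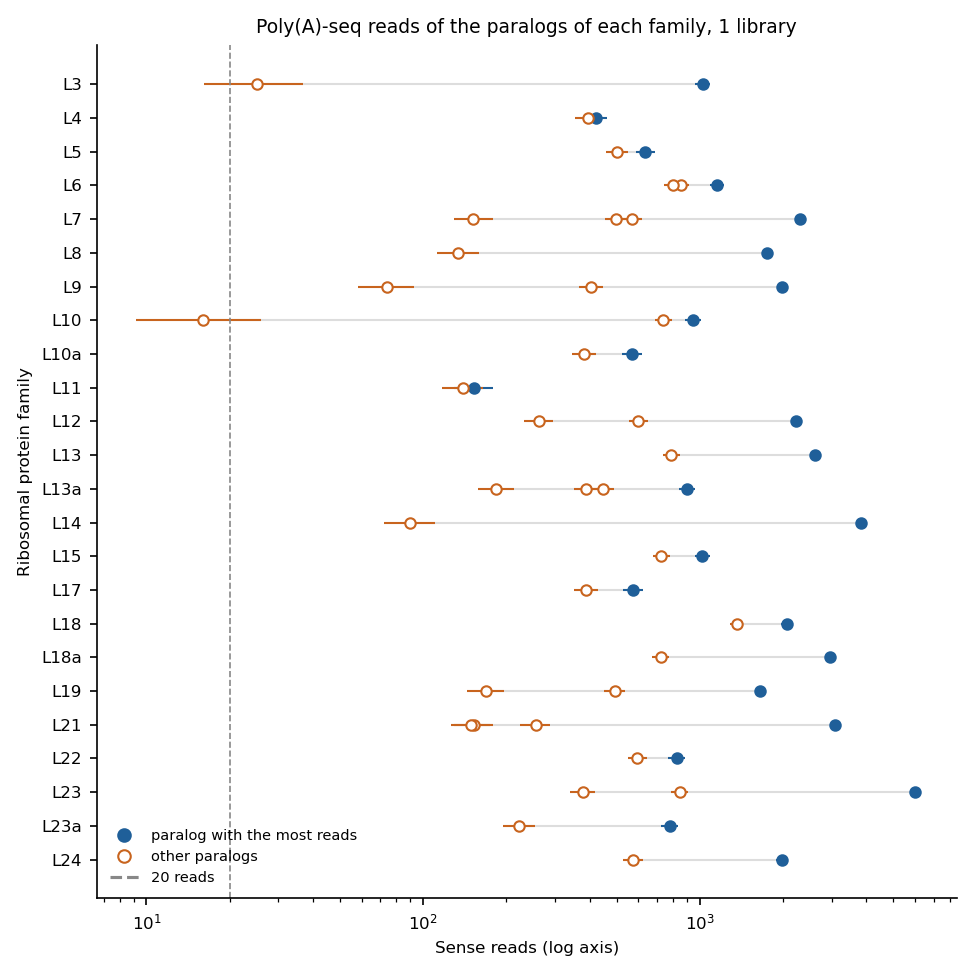
Sense reads (log axis) of each of the 60 members by family in the single poly(A)-seq library, with exact 95% Poisson intervals for counting error as bars, filled points for the paralog with the most reads and a dashed line at 20 reads. The paralogs of L3 and L14 lie farthest apart among families of 2, those of L4 and L11 nearly coincide, and RPL10B of L10 is the only point below the line, at 16 reads.

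The leading paralog held the largest shares in L14, L3 and, by the reads named on each gene, L8. In L14, AT4G27090 had 3818 reads and AT2G20450 had 90, which is 2.303% of the family (interval, 1.86 to 2.82%). In L3, whose protein reaches towards the peptidyl transferase centre, RP1 (AT1G43170) had 1025 reads and RPL3B had 25, a share of 2.38% (1.55 to 3.49%). In L8, a neighbour of the same centre, EMB2296 (AT2G18020) had 1753 reads and AT4G36130 had 134, a share of 7.10%. The L8 ratio is the one most affected by how reads were named, because AT4G36130 is overlapped on the opposite strand by AT4G36140: with the 232 reads that ended in AT4G36130 and named that gene, it had 366 reads and 17.3% of the family. EMB2296 would then lead by less than the leading genes of L21 and L23.

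The L21 and L23 families were led by a single gene over several minor ones. In L21, AT1G09690 had 3084 of 3641 reads (84.7%), while AT1G57660 had 255, AT1G57860 had 153 and AT1G09590 had 149. The last of these encodes the same protein as AT1G09690. In L23, emb2171 had 5987 of 7210 reads (83.0%), AT2G33370 had 845 and AT1G04480 had 378, and all encode the same protein. L23 had the most reads of any family.

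PGY2 (AT1G33140) held 80.6% of the L9 reads with 1986, AT1G33120 had 405 and AT4G10450 had 74 (3.00%). AT2G34480 held 80.4% of L18a with 2961 reads, and AT3G14600 had 721. In L23a, which sits at the exit of the tunnel where the signal recognition particle docks, RPL23AA (AT2G39460) had 780 reads, 77.8% of the family, and RPL23AB had 222. In L24, STV1 (AT3G53020), known for its part in reinitiation of translation after upstream open reading frames, had 1977 reads, 77.5%, and RPL24A had 573. In L13, BBC1 (AT3G49010) had 2619 reads, 76.8%, and AT5G23900 had 789. In these 5 families the interval of the leading share stayed above 75%.

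In the intermediate families L12, L19, L7 and L18 the least read paralog held between 4.32% of the reads (L7) and 39.8% (L18). L12 lies at the base of the stalk that activates the translation factors, and its leading gene AT3G53430 had 2223 reads (72.1%), with AT2G37190 at 600 and AT5G60670 at 262. In L19, which bridges to the small subunit, emb2386 (AT1G02780) had 1657 reads (71.5%), AT4G02230 had 493 and AT3G16780 had 169. In L7, AT2G01250 had 2306 reads (65.5%), followed by AT2G44120 with 568, AT3G13580 with 496 and AT1G80750 with 152. AT1G80750 was the most divergent protein among all the paralogs compared, and also the least read of its family. In L18, RPL18 (AT3G05590) had 2058 reads (60.2%) and AT5G27850 had 1360.

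The remaining families were shared more evenly. In L10a, the protein of the mobile L1 stalk, AT1G08360 had 567 reads (59.7%) and PGY1 had 382. In L17, at the tunnel exit, AT1G27400 had 575 (59.6%) and AT1G67430 had 389. In L15, AT4G16720 had 1021 (58.4%) and AT4G17390 had 727. L22 and L5 were divided in a similar way, and so were the more abundant pair of L10 genes, but not RPL10B. AT3G05560 had 826 L22 reads (58.1%) and AT5G27770 had 595, and in L5, which with L11 carries the smallest ribosomal RNA into the subunit, ATL5 (AT3G25520) had 635 (55.8%) and RPL5B had 503. In L10, which closes the last steps of subunit assembly in yeast, SAC52 (AT1G14320) had 947 reads (55.6%), SAG24 had 739 (43.4%) and RPL10B had 0.940%.

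In 2 families of 2 members the leading share could not be told from an even split by counting error alone. In L4, a protein of the tunnel wall, AT5G02870 had 421 reads, 51.7% (48.2 to 55.2%), and AT3G09630 had 393. In L11, AT3G58700 had 153 reads, 52.4% (46.5 to 58.2%), and RPL16A had 139. Larger families without a dominant gene were L13a and L6. In L13a, AT3G24830 had 902 reads (46.9%), AT3G07110 had 447, AT4G13170 had 389 and AT5G48760 had 184. In L6, AT1G74050 had 1155 reads (41.2%), its neighbour AT1G74060 had 853 and AT1G18540 had 797.

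For 7 families the annotation holds further paralogs that are not members, and in L10a, L11 and L18a these had reads. L11 was changed most, since 2 further genes had 938 sense reads and AT4G18730 with 499 reads led the family (40.6% of 1230). A further L10a gene had 253 reads, and with it AT1G08360 held 47.2%. A further L18a gene had 61 reads, and with it AT2G34480 held 79.1%. The further genes of L8, L13, L18 and L22 had no sense read.

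Reads could be assigned to their paralog because the sequence near the tail differs between paralogs. Of the member sense reads, 56881 (99.96%) covered a stretch of the reference with at least 3 mismatches to every paralog, more than the 2 mismatches that the authors allowed, and none was identical to a paralog. A mapping quality of 0 or 1 was listed for 46.6% of the member reads, but it mostly followed the number of annotated transcripts of a gene. It was given to 0.775% of reads in the 36 members with 1 transcript and to 99.3% in the 24 members with 2 or more. The exception was AT4G36130 (L8), overlapped by AT4G36140, which has 1 transcript and had this score for 100% of its 134 reads.

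Used 3′ UTRs of the members were short and alike. The used 3′ UTR length of a gene is the median distance, over its sense reads, from the stop codon to the 3′ end along the transcript. Over the 59 members with at least 20 reads it had a median of 152 nt (interval of the median over genes, 143 to 163 nt), with quartiles of 138.5 and 167 nt. Over the 9315 genes of the library with at least 20 placed reads the median was 178 nt, with quartiles of 138 and 227 nt. The whole range of the members was 106 to 207 nt, while 10.8% of all genes were shorter than the shortest member and 33.2% longer than the longest. In 42 of 59 members (71.2%) and 30.97% of all genes, the used 3′ UTR was 130 to 180 nt long. Only 7 members were longer than the median of all genes.

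The members were also shorter and closer together when compared with abundant genes. Among the 1260 genes of the library with at least 300 placed reads, a minimum chosen after the values were seen, the median was 175 nt and the quartiles were 144 and 213 nt, while the 45 members that passed the same minimum had a median of 154 nt and quartiles of 140 and 173 nt. The 43 genes with enough reads from a list of 51 other genes of the large subunit had a median of 164 nt and a range of 116 to 333 nt. Their quartiles, 141 and 180 nt, were close to those of the members.

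**Figure D2:**
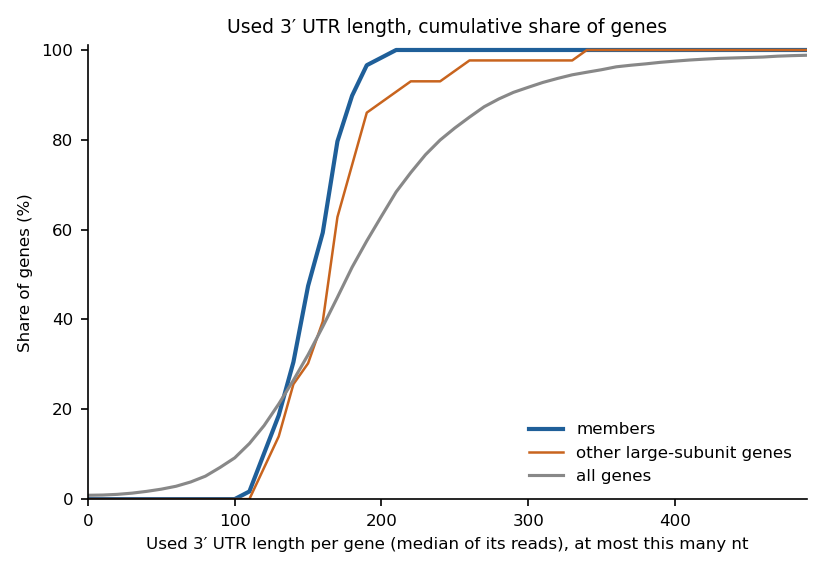
Cumulative share of genes (%) by used 3′ UTR length (nt after the stop codon, median of each gene's reads) for the 59 members, the 43 other large-subunit genes and the 9315 genes with at least 20 placed reads. The line of the members rises from 0 to 100% between 106 and 207 nt, while that of all genes rises more slowly on both sides.

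The members with the longest used 3′ UTRs belonged to L19, L18, L22, L10 and L13a. The longest was that of emb2386 (L19), with a median of 207 nt (quartiles, 173 and 210 nt). RPL18 (AT3G05590) followed with 191 nt, and AT3G05560 (L22), SAC52 (L10) and AT4G13170 (L13a) each had 186 nt. In AT3G05560, 610 reads ended beyond the reference transcript, whose 3′ UTR has 174 nt, and were placed on the genome past its end.

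L21 stood at the other end, with 2 of the 5 shortest. AT1G09590 of that family had the shortest used 3′ UTR, with a median of 106 nt (quartiles, 96 and 145 nt). It was followed by RPL16A (AT2G42740, L11) with 113 nt, AT1G57860 (L21) and AT1G18540 (L6) with 116 nt each, and EMB2296 (L8) with 120 nt, the same as AT1G57660, the remaining minor gene of L21. Even the leading L21 gene AT1G09690, with 139 nt, was below the median of the members.

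**Figure D3:**
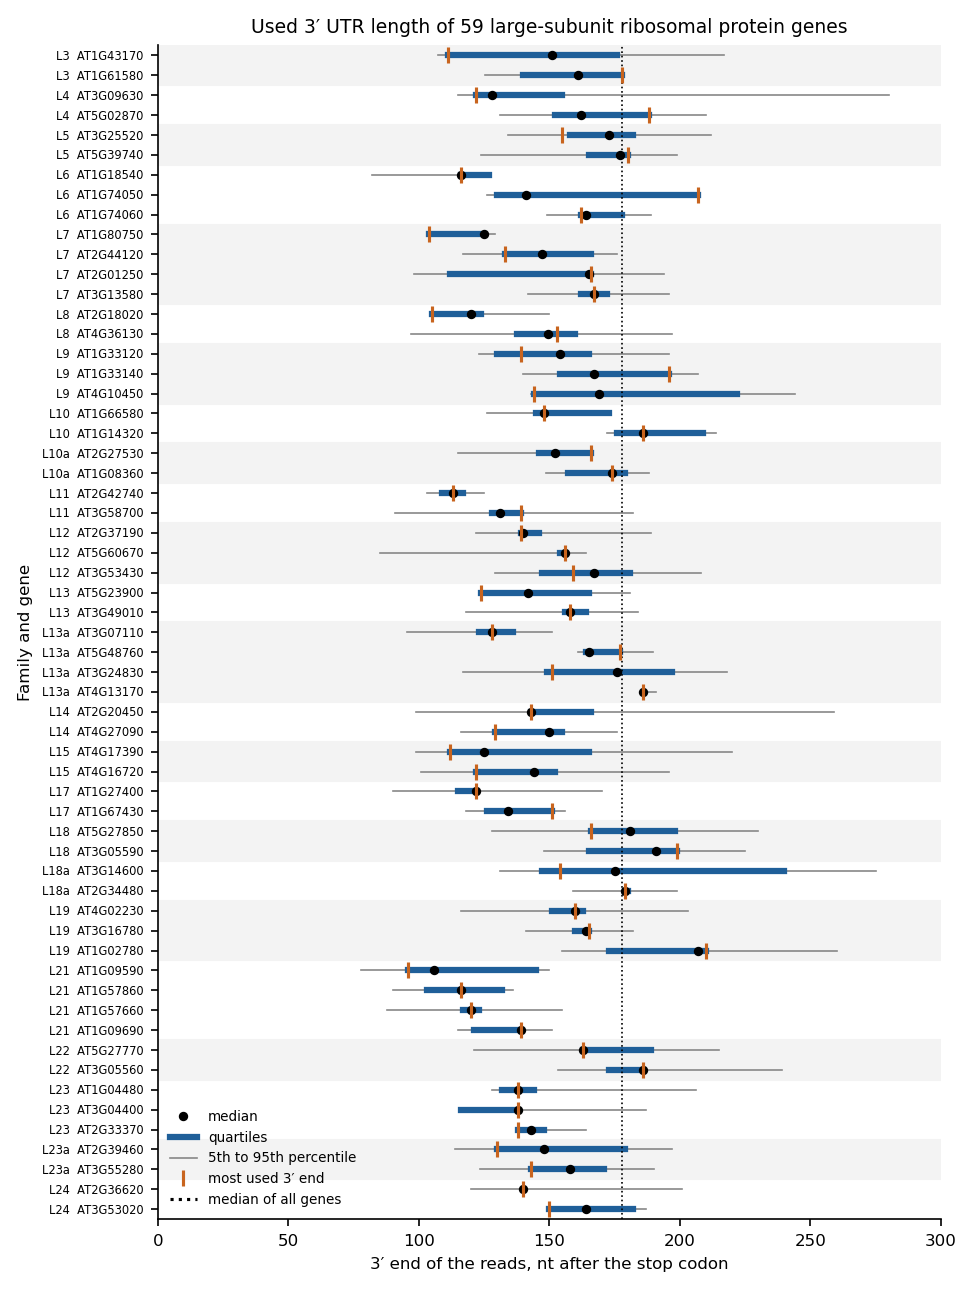
Position of the 3′ ends (nt after the stop codon) for the 59 members with at least 20 reads, by family, with the median as a black point, the quartiles as a blue bar, the 5th to 95th percentile as a grey line, the most used end as an orange mark and the median of all genes as a dotted line at 178 nt. Most medians lie left of the dotted line, and paralogs of a family differ in both spread and position.

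In 59 of the 60 members the median end lay upstream of the end of the reference transcript. The annotated 3′ UTR had a median of 285.5 nt (130 to 1539 nt), and the used length was a median of 0.565 of it. The longest annotated 3′ UTR, 1539 nt in AT4G13170, was also the one whose reads were most concentrated, at 186 nt. Annotated and used lengths were weakly related across members (Spearman's rho, 0.26 over 59 genes of 1 library, given as a description). The alignments were made to a set of transcripts whose version is not named. An end beyond every transcript of a gene in that set could not be listed. In AT1G80750 (L7), the member with the shortest annotated 3′ UTR, 28 of 152 reads (18.4%) ended within 2 nt of the end of their transcript. The same held for 40 of 184 reads (21.7%) of AT5G48760 (L13a) and 54 of 496 (10.9%) of AT3G13580 (L7). Only 3 of the 56902 member reads ended at or before the stop codon.

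Within most members the 3′ ends were spread over many positions. The interquartile range of the ends had a median of 24 nt over the members (0 to 93 nt), and of 24 nt over all genes. Among genes with at least 300 reads it was 26 nt over the 45 members and 20 nt over all 1260. The most used end held a median of 28.3% of the reads (12.1 to 68.4%), against 34.4% over all genes, and 17.3% in the members when identical reads were counted once. The 3 most used ends together held a median of 57.2% (30.9 to 88.4%). The number of different ends per member was 7 to 84, with a median of 36. The most used and the next most used end lay a median of 19 nt apart (1 to 118 nt), within 10 nt in 17 members and over 24 nt apart in 22.

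A few members ended at nearly a single position. In AT4G13170 (L13a) 266 of 389 reads (68.4%; interval, 63.5 to 73.0%) stopped 186 nt after the stop codon, its next ends lay at 191 and 185 nt, and the interquartile range was 0 nt. RPL24A (AT2G36620, L24) also had an interquartile range of 0 nt, with 346 of 573 reads (60.4%) at 140 nt. AT2G34480 (L18a) had a range of 1 nt and 1933 of 2961 reads (65.3%) at 179 nt. These were followed by AT5G60670 (L12) with 2 nt and AT3G16780 (L19) with 5 nt. Among the 59 members, 12 had an interquartile range of at most 10 nt and 5 had over 50% of the reads at their most used end.

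The widest spread was seen in genes of L18a, L9, L6, L3 and L7. AT3G14600, the partner of AT2G34480 in L18a, had an interquartile range of 93 nt, and its most used ends, at 154, 272 and 240 nt, held 12.1, 9.99 and 8.88% of its 721 reads. AT4G10450 (L9) had a range of 78 nt over 74 reads, 21 of them at 144 nt and 10 at 244 nt. AT1G74050 (L6) had a range of 77 nt, with 327 of 1155 reads at 207 nt and 229 at 130 nt. RP1 (L3) and AT2G01250 (L7) followed, with 65 and 54 nt. The median of AT1G74050, 141 nt, fell between its most used ends, and other ends lay between them as well.

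**Figure D4:**
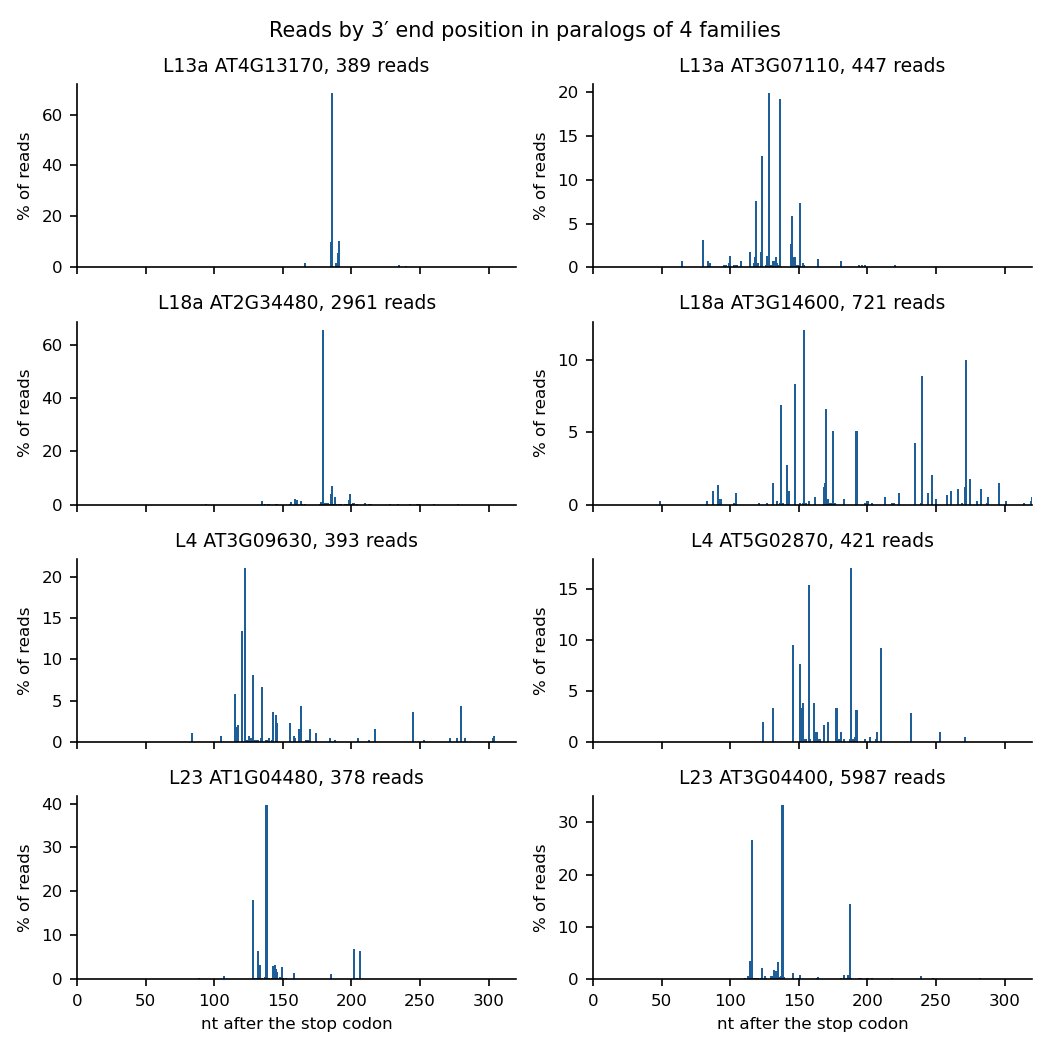
Share of reads (%) by the position of their 3′ end (nt after the stop codon) in pairs of paralogs from L13a, L18a, L4 and L23, with a scale of its own for each gene. AT4G13170 and AT2G34480 show a single high bar at 186 and 179 nt, their paralogs AT3G07110 and AT3G14600 show many lower bars, and AT3G09630 and AT1G04480 show a minor group of ends downstream.

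Few members had separate sites. A site was a chain of ends that each lay within 24 nt of the next, and a site counted when it held at least 10% of the reads. By this rule 2 of 59 members (3.39%) had 2 sites, against 36.9% of all genes. The share moved with the number of reads: among genes with at least 300 reads it was 8.17%, and among the 45 members with as many it was 4.44% (2 genes). With ends joined only within 10 nt, 20 of 59 members (33.9%) and 70.4% of all genes had 2 or more sites, and at 300 reads 13 of 45 members (28.9%) and 39.2% of genes did. With 2 members called, the share at 300 reads is too close to that of all such genes to be read as a property of the members. The read numbers above these minimums were not matched between members and other genes.

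Both members with 2 sites used the downstream one for a minority of reads. In AT3G09630 (L4) 350 of 393 reads ended 84 to 217 nt after the stop codon, and 43 reads (10.9%; interval, 8.03 to 14.5%) ended at 245 to 304 nt, most often at 280 nt. In AT1G04480 (L23) 323 of 378 reads ended at 89 to 158 nt, and 55 (14.6%; 11.2 to 18.5%) at 185 to 206 nt, most often at 202 nt. Their shares lie just above the limit of 10%, and for AT3G09630 the interval includes it. The paralog AT3G04400 had 865 reads (14.4%) at 187 nt, but intervening ends joined them to its main group.

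Paralogs of a family lay close together in used 3′ UTR length, but so did the members as a whole. The quartiles over all 59 members were 138.5 and 167 nt. Length differences between members of different families were not computed, so the values here are not read as particular to paralogs. Over the 49 pairs within families in which both genes had at least 20 reads, the medians differed by a median of 18 nt, from 0 to 58 nt. They were within 10 nt in 15 pairs and over 50 nt apart in 1, while the most used ends were over 50 nt apart in 8. In 17 pairs the quartile ranges of the ends did not overlap, and in 4 the ranges from the 5th to the 95th percentile did not, all of which describe the spread of reads in 1 library and not of replicates.

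The pair over 50 nt apart was in L13a, where AT4G13170 (186 nt) exceeded AT3G07110 (128 nt) by 58 nt. In AT3G07110 the most used ends were at 128, 136 and 123 nt, so the reads of these genes did not overlap from the 5th to the 95th percentile. The next pairs were AT1G74060 over AT1G18540 in L6 (164 and 116 nt) and AT3G24830 over AT3G07110 in L13a (176 and 128 nt), each 48 nt apart. In L19, emb2386 (207 nt) exceeded AT4G02230 (160 nt) by 47 nt and AT3G16780 (164 nt) by 43 nt. In L19 the gene with the most reads had the longest used 3′ UTR, whereas in L13a it had neither the longest nor the shortest. Read number and used 3′ UTR length had a Spearman's rho of 0.28 across the 59 members.

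The L23 genes shared the position of their most used end. In AT3G04400, AT2G33370 and AT1G04480 the most used end lay 138 nt after the stop codon, with 1995 of 5987, 261 of 845 and 150 of 378 reads, respectively, and the medians were 138, 143 and 138 nt. These were the only paralog pairs, 3 of 49, with the most used end at the same distance. Equal distances also occurred between families. The most used end lay at 139 nt in AT1G33120 (L9), AT3G58700 (L11), AT2G37190 (L12) and AT1G09690 (L21). The shared distance in L23 is therefore not read as a trait of paralogs. The other ends of the L23 genes differed: AT3G04400 had 26.6% of its reads at 116 nt, AT2G33370 had 29.9% at 148 nt and AT1G04480 had 17.99% at 128 nt. In the L18a pair the medians were also close, 179 and 175 nt, with interquartile ranges of 1 and 93 nt, so similar medians did not mean similar ends.

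The 3′ UTRs of most paralog pairs were much less alike in sequence than their proteins. Proteins of the paralog pairs, translated from the annotation, were identical at a median of 93.3% of residues (44.5 to 100%), and 6 pairs had the same protein. The stretch from the stop codon to the median end was identical at a median of 56.8% of bases in a global alignment (47.6 to 87.5%), and was below the protein identity in 46 of 49 pairs. Identity of bases and of residues are unlike measures, and the coding sequences were not compared base by base. Alignment of unrelated 3′ UTRs sets the scale: over 1662 pairs of members from different families the median was 54.3% and the highest 66.5%. Of the 49 paralog pairs, 10 were above the 95th percentile of these values (60.4%) and 4 above the highest. The closest pair was AT1G57660 and AT1G57860 of L21, with 87.5% identity, the same protein and medians of 120 and 116 nt. The L9 neighbours AT1G33120 and PGY2 had 76.6%, the L5 genes 74.6% and the L6 neighbours 71.3%. The L23 genes, with the same protein, had 56.6 to 58.7%, within the range of unrelated 3′ UTRs.

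The hexamer AATAAA was not found upstream of the members' ends. It was searched, on the strand of the transcript, 10 to 40 nt before the most used end. It was found in 0 of 59 members, against 12.2% of the 9315 genes and 11.8% of genes with at least 300 reads. A count of 0 of 59 would allow a share of up to 5.08% if the members were a random draw of genes. In the 100 nt before the end the hexamer was likewise found in 0 members, against 16.4% of all genes. Of the 43 other large-subunit genes, 0 had it within 10 to 40 nt. AATAAA or a hexamer that differs from it by 1 base was found in 9 of 59 members (15.3%) and 10 of the 43 others (23.3%), against 49.9% of all genes and 47.6% at 300 reads, where 6 of 45 members (13.3%) had it. These counts say only that the letters are not in the windows searched.

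The 9 members with a near match came from 9 families. In PGY2 it is the ATTAAA of the sequence above, which starts 18 nt before the end, and in AT4G13170 and AT5G60670 (L12) it is AATCAA, which starts 20 and 23 nt before it. AT4G36130 (L8) has GATAAA, AT5G23900 (L13) has AATACA, AT2G20450 (L14) has ACTAAA and AT2G34480 has a run of A. In AT1G08360 (L10a) and RPL24A the match lies farther upstream.

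TGTA, a motif known upstream of plant and animal polyadenylation sites, was also less frequent. It was searched in the 120 nt that end 30 nt before the most used end and can share with AATAAA no more than its last letter. It was found in 26 of 59 members (44.1%) and 23 of 43 other large-subunit genes (53.5%), against 76.2% of all genes. At 300 reads or more it was found in 17 of 45 members (37.8%) and 71.6% of genes. Base composition moved with these counts. In the 40 nt before the most used end, members had a median of 25% A and 45% T, and all genes had 30% A and 40% T, while the other large-subunit genes had 25% A and 42.5% T. The window for TGTA also reached upstream past the stop codon where the most used end lay near it, as in EMB2296 at 105 nt. The most used end of the members lay at a median of 150 nt. The parts of base composition and of 3′ UTR length in the motif counts were not tested.

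**Figure D5:**
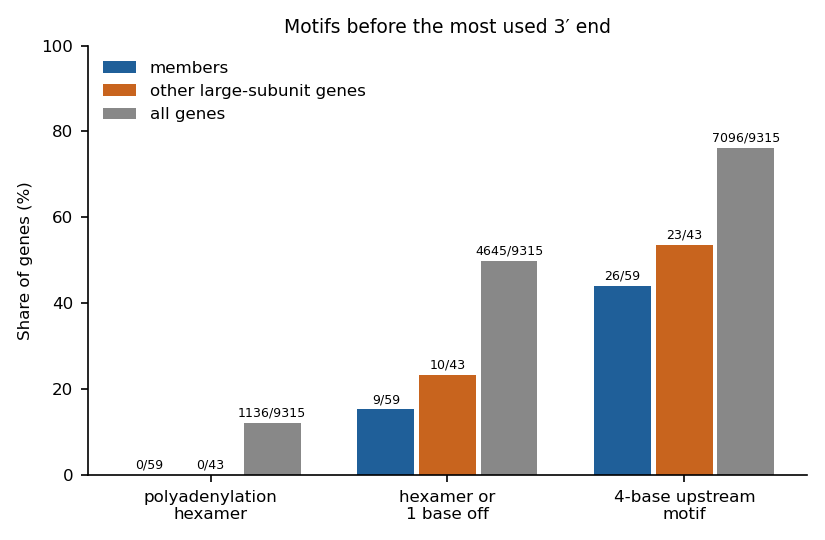
Share of genes (%) with the polyadenylation hexamer 10 to 40 nt before the most used 3′ end, with it or a hexamer 1 base away, and with the 4-base upstream motif, for members, other large-subunit genes and all genes, with the counts above the bars. The members have the lowest share or share the lowest place in each group, 0 of 59, 9 of 59 and 26 of 59.

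The position of an end is certain only up to the bases that the tail hides. Because the tail was removed as a run of A, a genomic A next to the true end is lost from the read. A followed the most used end in the genome in 55 of 59 members (93.2%) and 90.4% of all genes, and the run of A had a median of 2 nt and at most 9 nt in the members. Over all reads of a member, the next base was A for a median of 80.7% (36.3 to 99.3%). True ends may therefore lie a few nucleotides farther from the stop codon than given.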

How the data were processed

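The deposited alignments of 1 poly(A)-seq library were used. Reads from the 5′ side in which the adaptor could be found were retained by the authors, who removed 3 random bases, the adaptor and the tail (A, with G allowed, and at least 5 A at its start), and aligned the rest with Bowtie2 at up to 2 mismatches. The methods name TAIR10 as target and a minimum of 18 nt, while the deposited rows name transcripts and the shortest is 16 nt. Mapping quality, as deposited, is a score between 0 and 42. No removal of duplicates is stated for poly(A)-seq. The read names, transcript positions and strands are as deposited.

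Each sense read was placed on the reference transcript of its gene (longest coding sequence) in the RefSeq annotation of TAIR10.1, and positions were compared between transcripts through the genome. Annotation was lacking for the transcripts of 19281 reads of all genes, which were left out of positions. A further 9709 reads ended past the end of their transcript in this annotation and were left out as well. All 56902 member sense reads were placed. Values need at least 20 sense reads. Counts have exact Poisson and shares Clopper-Pearson 95% intervals. No test between groups was possible with 1 library. The placement code was checked on simulated 3′ ends drawn on the reference transcripts themselves. Reads named on other transcripts and ends past the reference were not covered by this check. Genes named in the text were the leading paralog of each family, the 5 extremes of length, spread and paralog difference, members with 2 sites and members under 20 reads. Genes named for overlapping reads, hexamers, transcript ends or sequence identity were added after their values were seen. The members and lists were chosen with earlier results of these data known. Alternatives covered mapping quality, duplicates, paralogs, antisense reads, minimum reads, site width, motif and gene assignment. Python 3.11.15, numpy 2.4.6, scipy 1.17.1, biopython 1.88 and matplotlib 3.10.9 were used.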

Additional observations from a re-analysis of the deposited data

Results flagged for a closer look

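Antisense reads lie outside the values above. Of the members, 6 had more than the 3 antisense reads that a count of 0 allows. They were AT5G27850 (L18) with 13, AT1G74060 (L6) with 12, AT1G80750 (L7) with 9, AT1G67430 (L17) with 9, AT3G13580 (L7) with 5 and AT4G13170 (L13a) with 5. Several ended within a gene annotated on the opposite strand: 7 of the 12 reads of AT1G74060 in AT1G74055, 8 of the 9 reads of AT1G67430 in AT1G67440 and all 5 reads of AT4G13170 in AT4G13160. The 9 reads of AT1G80750, 5.59% of its reads (interval, 2.59 to 10.3%), ended in no annotated gene.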

How the results depend on the processing

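Of 46 recomputed values over 9 results and 12 settings, 34 stayed within the interval of the value given or within 1.5 times the count. With a mapping quality of at least 10, 30309 sense reads and 37 members with at least 20 reads remained, the leading paralog held a median of 89.1% and 1 member had 2 sites, because this score removes nearly all reads of genes with several transcripts. With reads of the same transcript, start and end counted once there were 16474 reads. The most used end then held a median of 17.3% and 2 pairs differed by over 50 nt. Copies named on different transcripts of a gene were kept apart in this count, and the effect on genes with several transcripts was not tested. With the most used end in place of the median, 8 pairs differed by over 50 nt. By the median, 0 pairs differed by over 100 nt. With ends joined within 10 nt, 20 members had 2 or more sites, and with sites of at least 5% there were 4. AATAAA or 1 base different was found in 9 members. The median used 3′ UTR length was 148 to 155.5 nt in all the settings tried for it. Counting reads that ended in a member but named another gene, a setting chosen after seeing the data, gave 57162 reads and a leading share of 68.5%. No paired analysis was possible because there was 1 library and no groups were compared. Shares in members with few reads, such as RPL3B with 25, are limited by depth.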
